A study of Mus musculus with 12 samples.

Results

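The 49 genes described here encode the machinery of cell division: 11 genes of origin licensing and the replicative helicase, 8 of DNA synthesis and nucleotide supply, 6 E2F factors and S-phase cyclins, 18 of mitosis and 6 G1 regulators. They were chosen by symbol from the raw count tables of J774A.1 cells, a mouse macrophage line that divides in culture. All 49 were present once in the table of 17544 genes for unstimulated cells and once in the table of 17874 genes for LPS-stimulated cells, and all 49 passed the filter on low counts in every comparison. RNA-seq had been performed in 4 groups of 3 libraries: WT and ACAT1 KO cells, each left unstimulated or given LPS, the lipopolysaccharide that Toll-like receptor 4 senses, at 100 ng/ml for 2 hours. The knockout lines had been made with Cas9 and a guide to exon 4 of Acat1, a mitochondrial thiolase of fatty acid and ketone body breakdown. The control lines had received the same GFP-marked Cas9 vector without a guide. For both kinds of line, sorted cells were plated at several per well, and the study describes the populations that grew out as clonal. Each genotype is represented by 3 lines. Differences between lines that have nothing to do with Acat1 cannot be told apart from the genotype. The labels do not say whether libraries with the same replicate number came from the same line.

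Cells that enter S phase first load the Mcm2 to Mcm7 helicase onto replication origins with Cdc6 and Cdt1, and then activate it with Cdc45 and the GINS complex. Transcription of these genes is switched on in late G1 by E2F factors, once D-type and E-type cyclins with their kinases have inactivated the retinoblastoma protein. Mitotic genes are switched on later, in G2, through complexes that contain B-MYB. Activated macrophages are known to leave the cell cycle, with a fall of cyclin D1 and a rise of the kinase inhibitor p21.

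Libraries held between 56948593 and 167280149 counts, and the lowest count of any of the 49 genes in any library was 461, for E2f2. Spread between libraries was wider without stimulation, with a common biological coefficient of variation of 0.285 against 0.108 after LPS. Unstimulated WT replicates 1 and 2 and ACAT1 KO replicate 2 stood apart, since noncoding genes lying opposite exons took 0.0136% to 0.0209% of their counts, while no other library exceeded 0.00334%. Acat1 itself was 98.8 ± 15.6 CPM (counts per 1000000 counts of a library) in WT and 26.8 ± 1.82 CPM in ACAT1 KO cells without stimulation, and 81.9 ± 15.5 CPM and 19.1 ± 0.732 CPM after LPS (SD, n = 3 each). All 10 macrophage markers looked at were above 10 CPM in every library, and of 20 markers of T, B, neutrophil, dendritic, fibroblast, epithelial and endothelial cells 7 were listed for unstimulated cells and 8 for LPS-stimulated cells, none above 11.97 CPM. In the text below CPM are scaled by the TMM method over the 12 libraries, a trio of values gives replicates 1, 2 and 3 in that order, and an adjusted p comes from the quasi-likelihood test of edgeR, with the Benjamini-Hochberg method applied over all genes tested. A gene was called at an adjusted p under 0.05. Values are shares of the RNA in a library, so fewer dividing cells and less of a transcript per dividing cell cannot be told apart.

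The first question was how LPS changed these genes in each genotype. In WT cells 40 of the 49 genes were called, 38 of them lower and 2 higher, Cdkn1a and Myc. LPS moved much of the transcriptome, since 57.4% of the 16535 genes tested were called, 28.0% lower and 29.3% higher. In ACAT1 KO cells 41 of the 49 were called, 40 lower and 1 higher, Cdkn1a, against 60.7% of all genes, 31.2% lower and 29.5% higher. The median log2 fold change of the 49 genes was -0.58 in WT and -0.64 in ACAT1 KO cells, against medians of -0.018 and -0.026 over all genes tested. With upper-quartile scaling the median of all genes moved to -0.23 and -0.17, and that of the 49 genes to -0.79 in both genotypes.

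**Figure D1:**
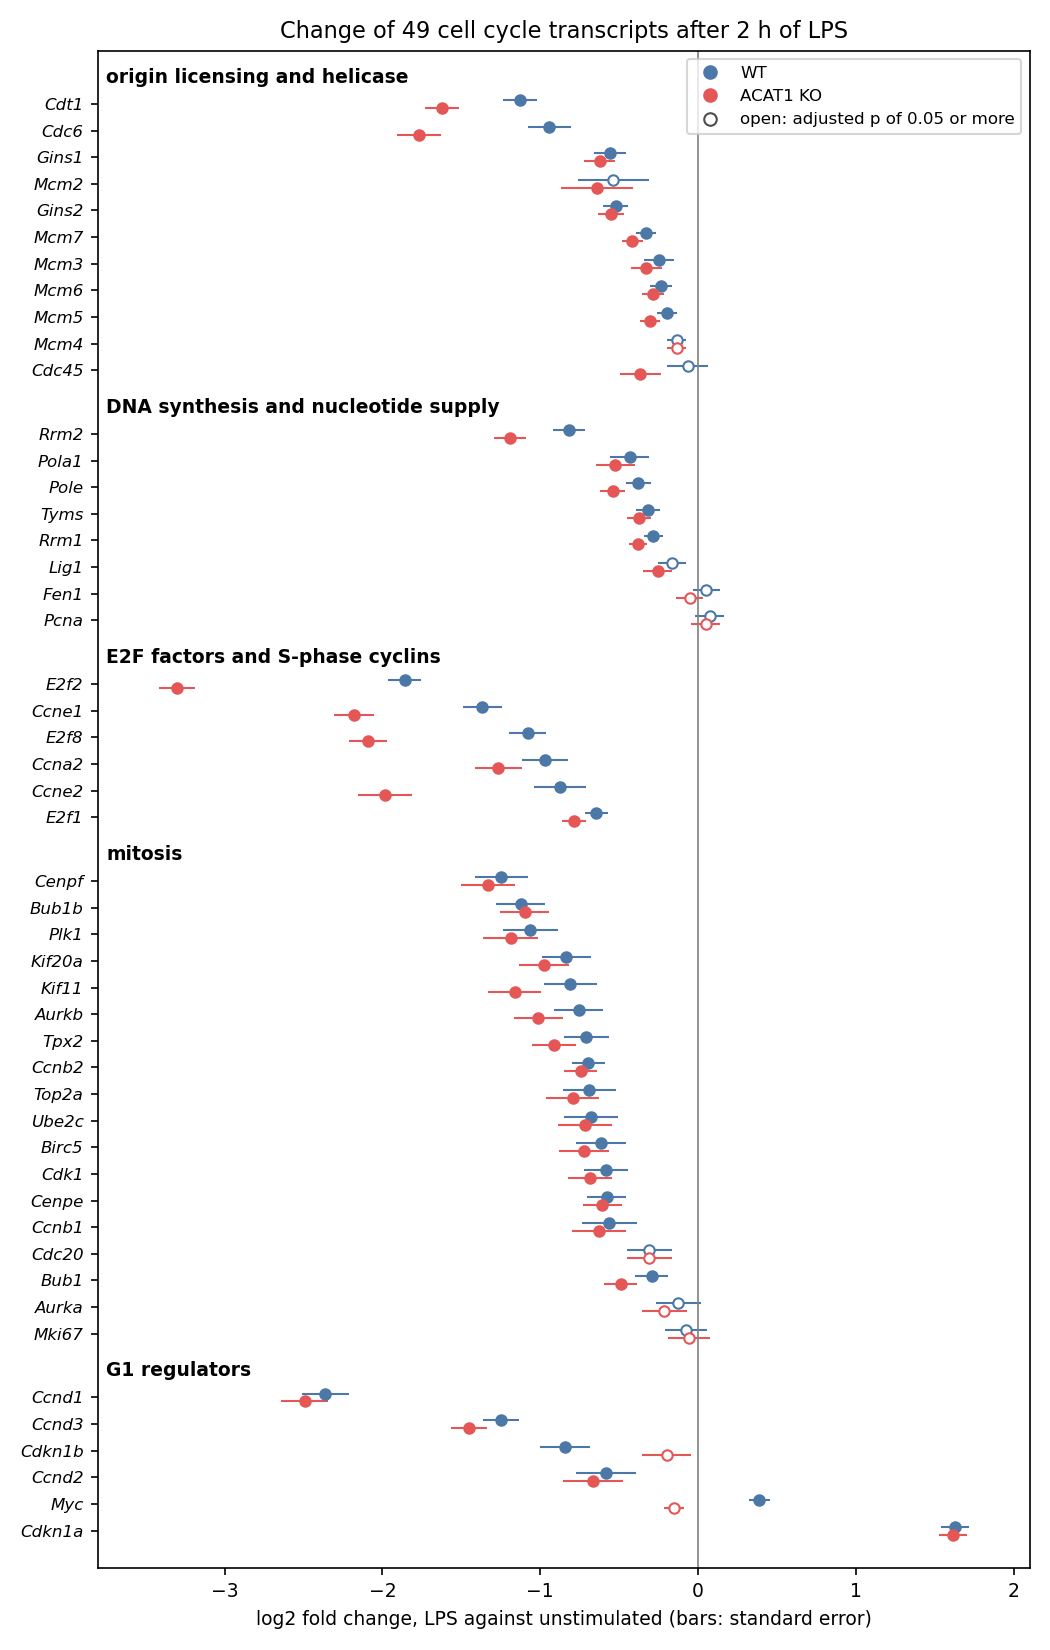
Log2 fold change of each of the 49 genes after LPS against unstimulated cells, on the horizontal axis, in WT (blue) and ACAT1 KO cells (red), grouped by role. Bars are standard errors of the fit over 12 libraries and open symbols did not pass the adjusted threshold. Most genes lie left of 0 in both genotypes, and E2f2, Ccne1, E2f8, Ccne2, Cdc6 and Cdt1 lie farther left in ACAT1 KO cells.

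The 6 E2F factors and S-phase cyclins were called lower in both genotypes, with a median of -1.03 in WT and -2.04 in ACAT1 KO cells. E2f2, an activator E2F (chr4:136172394-136196057, plus strand), was 56.5, 58.8 and 56.9 CPM in unstimulated WT cells and 16.5, 17.9 and 13.1 CPM after LPS. In ACAT1 KO cells it was 51.5, 59.7 and 57.8 CPM without stimulation and 5.37, 5.92 and 5.85 CPM after LPS. The unstimulated genotypes overlapped, whereas after LPS the highest ACAT1 KO library lay under the lowest WT library by more than the whole range of either group. The fall was 3.63-fold in WT cells (log2 fold change -1.86, standard error 0.104, adjusted p = 3.28e-08) and 9.86-fold in ACAT1 KO cells (-3.30, 0.111, adjusted p = 5.60e-10).

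E2f8, an atypical E2F that represses E2F target genes (chr7:48866429-48881596, minus strand), followed the same order. It was 61.2, 73.2 and 72.0 CPM in WT and 62.5, 76.4 and 73.7 CPM in ACAT1 KO cells without stimulation. After LPS it was 31.3, 36.6 and 29.7 CPM in WT and 14.9, 18.9 and 16.02 CPM in ACAT1 KO cells, without overlap of the genotypes. LPS lowered it 2.12-fold in WT (log2 fold change -1.08, standard error 0.116, adjusted p = 6.99e-06) and 4.26-fold in ACAT1 KO cells (-2.09, 0.119, adjusted p = 3.20e-08). A gene on the other strand covers 11.2% of the exons of E2f8, and the sources used here do not say whether counting used the strand.

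Ccne1, which encodes cyclin E1, the partner of Cdk2 at the entry to S phase (chr7:38097984-38107534, minus strand), was 36.0, 37.6 and 42.1 CPM in WT and 37.5, 41.3 and 43.0 CPM in ACAT1 KO cells without stimulation. After LPS it was 14.02, 16.9 and 13.97 CPM in WT and 7.28, 9.44 and 10.1 CPM in ACAT1 KO cells, again without overlap. Its log2 fold change with LPS was -1.37 in WT (standard error 0.122, adjusted p = 1.44e-06) and -2.18 in ACAT1 KO cells (standard error 0.125, adjusted p = 3.37e-08). Ccne2, the other E cyclin, had log2 fold changes of -0.88 and -1.99 in the 2 genotypes, and Ccna2, which encodes cyclin A2 of S and G2 phase, had -0.97 and -1.26.

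E2f1, another activator E2F (chr2:154559407-154569892, minus strand), fell less. It was 69.0, 70.2 and 76.7 CPM in WT and 95.9, 98.1 and 104 CPM in ACAT1 KO cells without stimulation, and 41.2, 47.1 and 49.8 CPM in WT and 54.8, 58.6 and 59.1 CPM in ACAT1 KO cells after LPS. Every ACAT1 KO library was above every WT library of the same state. The log2 fold change with LPS was -0.64 in WT (standard error 0.0745, adjusted p = 1.35e-05) and -0.79 in ACAT1 KO cells (standard error 0.0744, adjusted p = 2.11e-06).

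**Figure D2:**
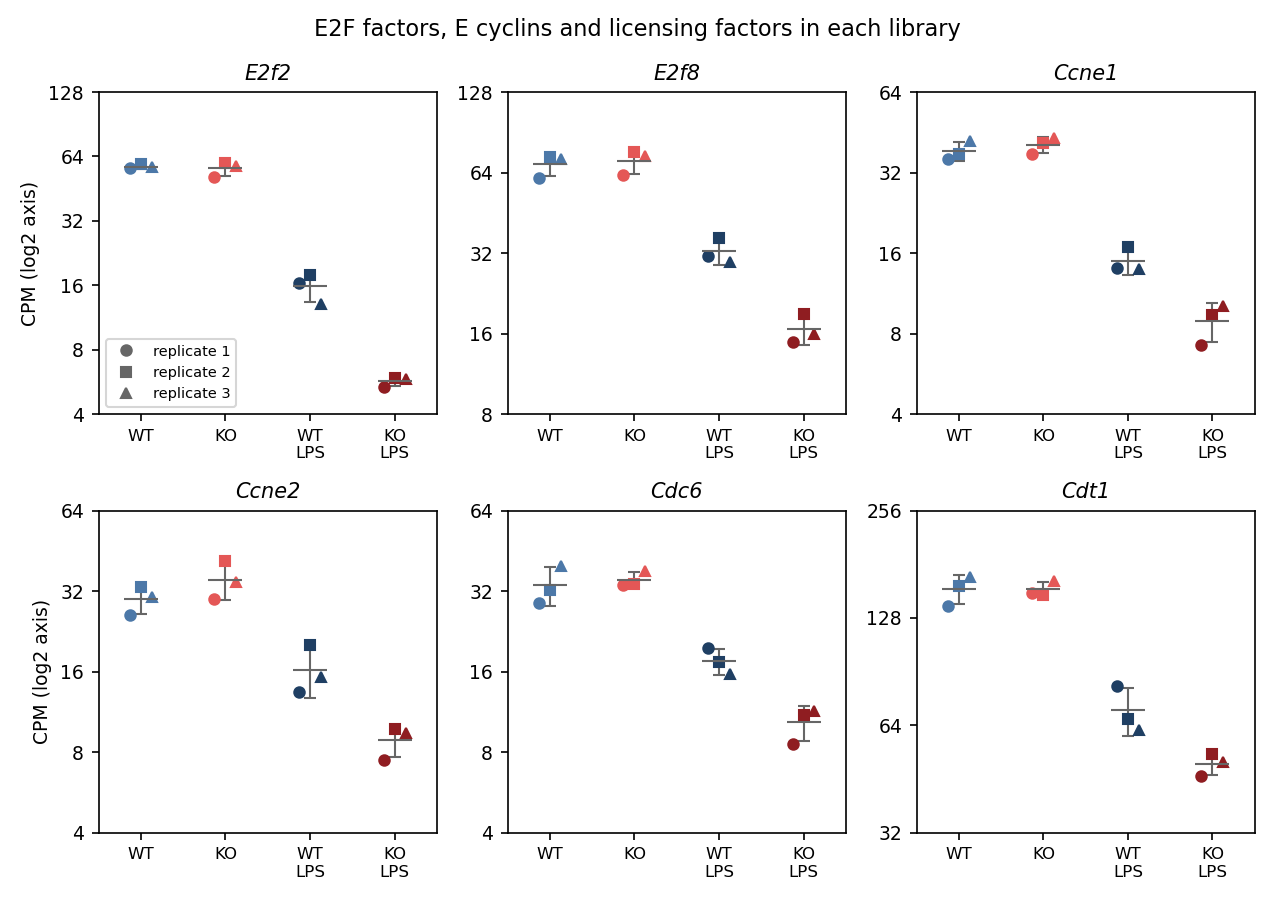
CPM of E2f2, E2f8, Ccne1, Ccne2, Cdc6 and Cdt1 in each of the 12 libraries, on a log2 axis, by group, with the mean and SD of 3 libraries in grey and the replicate number as the symbol. The genotypes overlap without stimulation and part after LPS for all 6 genes, with E2f2 at 13.1 CPM or higher in WT and 5.92 CPM or lower in ACAT1 KO cells.

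Among the 11 licensing and helicase genes, 8 were called lower in WT and 10 in ACAT1 KO cells, and none was called higher. The licensing factors Cdt1 and Cdc6 changed most. Cdt1 had a log2 fold change of -1.13 in WT and -1.62 in ACAT1 KO cells, and Cdc6 of -0.94 and -1.77. The helicase subunits moved little by comparison: Mcm3, Mcm5, Mcm6 and Mcm7 were called lower in both genotypes with log2 fold changes between -0.20 and -0.42, Mcm2 was called in ACAT1 KO cells alone (-0.54 in WT and -0.64 in ACAT1 KO cells) and Mcm4 in neither (-0.14 in both). Gins1, a GINS subunit (chr2:150905400-150931280, plus strand), was 35.2, 34.8 and 44.5 CPM in WT and 53.04, 48.96 and 54.6 CPM in ACAT1 KO cells without stimulation, and 23.3, 27.3 and 27.3 CPM and 32.1, 34.6 and 34.9 CPM after LPS. The genotypes did not overlap in either state, and LPS lowered Gins1 in both, with log2 fold changes of -0.56 (standard error 0.0992, adjusted p = 4.32e-04) and -0.62 (standard error 0.0988, adjusted p = 1.62e-04).

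Of the 8 genes of DNA synthesis and nucleotide supply, 5 were called lower in WT and 6 in ACAT1 KO cells. Rrm2, the S-phase subunit of ribonucleotide reductase, changed most, with log2 fold changes of -0.82 in WT and -1.19 in ACAT1 KO cells, while its partner Rrm1 had -0.28 and -0.38. Tyms, thymidylate synthase, and Pole, the catalytic subunit of DNA polymerase epsilon, were also called lower in both genotypes. Pcna, the sliding clamp of the polymerases (chr2:132249162-132253314, minus strand), did not follow. It was 294, 274 and 360.4 CPM in WT and 439.9, 392 and 428 CPM in ACAT1 KO cells without stimulation, and 316, 319.8 and 341 CPM and 438, 443 and 421 CPM after LPS. Its log2 fold change with LPS was 0.073 in WT (standard error 0.0910, adjusted p = 0.523) and 0.047 in ACAT1 KO cells (standard error 0.0910, adjusted p = 0.676), so no change was detected. Reads of Pcna may be shared with its processed pseudogenes.

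Of the 18 mitotic genes, 15 were called lower in each genotype, with a median of -0.68 in WT and -0.73 in ACAT1 KO cells. Cenpf, a kinetochore protein, had -1.25 and -1.33, Bub1b, a spindle checkpoint kinase, -1.12 and -1.10, and Plk1, a kinase of mitotic entry, -1.06 and -1.19. Ccnb1 and Ccnb2, the B cyclins, and their kinase partner Cdk1 had log2 fold changes between -0.56 and -0.74. The 3 genes that were not called in either genotype were Mki67, the proliferation antigen Ki-67, with -0.077 and -0.058, Aurka, a centrosomal kinase, with -0.13 and -0.22, and Cdc20, an activator of the anaphase-promoting complex, with -0.31 in both. Bub1, a checkpoint kinase (chr2:127801122-127831865, minus strand), was 77.9, 86.5 and 96.3 CPM in WT and 124, 137 and 137 CPM in ACAT1 KO cells without stimulation, and 60.7, 75.1 and 76.7 CPM and 85.3, 98.1 and 99.1 CPM after LPS. LPS lowered it in WT (log2 fold change -0.30, standard error 0.104, adjusted p = 0.0288) and in ACAT1 KO cells (-0.49, 0.104, adjusted p = 0.00140). The call in WT was lost without WT replicate 2 (adjusted p = 0.0571), WT replicate 3 (0.118) or LPS-stimulated WT replicate 1 (0.113).

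The promoter table of RefSeq (GRCm38.p6), which runs from 250 bases before to 50 after a start site, held 37 of the 49 genes. An E2F motif, read as TTTCCCGC, TTTCGCGC, TTTGCCGC or TTTGGCGC on either strand with overlapping matches counted separately, was found in 6 of 8 licensing and helicase genes with an entry, 2 of 7 genes of DNA synthesis, 1 of 4 E2F factors and cyclins, 1 of 15 mitotic genes and 0 of 3 G1 regulators, against 2.60% of 27025 genes in the table. The cell cycle homology region (CHR) of mitotic promoters, read as TTTGAA or TTCGAA on either strand, was found in 12 of 15 mitotic genes, 3 of 8 licensing and helicase genes and 21.7% of all genes. It was also found in 2 of 4 E2F factors and cyclins and in 18 of the 37 genes together. CCAAT was found in 14 of 15 mitotic genes, 6 of 8 licensing and helicase genes, 28 of the 37 together and 41.1% of all genes, so it was common outside mitosis too. A match describes letters only and is not evidence of binding.

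Stretches around the start sites of 4 genes with an E2F match are shown because Cdc6, Cdt1 and E2f2 were among the genes that fell most with LPS and Mcm6 was among those that fell little. For Mcm6 (chr1:128359706-128359955, minus strand) it is the 250 bases before the start site, for Cdc6 (chr11:98908001-98908030, plus strand) 30 bases before it, and for Cdt1 (chr8:122568035-122568064, plus strand) and E2f2 (chr4:136172294-136172323, plus strand) 30 bases after it, all 5′ to 3′ from RefSeq, GRCm38.p6, with E2F matches in capitals.
Cdc6: ggccggtggagaGCGGGAAAtcgcctgggg
Mcm6: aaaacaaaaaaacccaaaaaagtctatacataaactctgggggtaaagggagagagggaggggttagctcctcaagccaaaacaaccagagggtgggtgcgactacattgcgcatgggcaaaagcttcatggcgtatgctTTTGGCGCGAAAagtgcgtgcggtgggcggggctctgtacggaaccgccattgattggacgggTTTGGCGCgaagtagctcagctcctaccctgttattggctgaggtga
Cdt1: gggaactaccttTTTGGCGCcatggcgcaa
E2f2: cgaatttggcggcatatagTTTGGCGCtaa
The matches began at position -138 in Cdc6, at -110, -106 and -47 in Mcm6, at 33 in Cdt1 and at 40 in E2f2, counted from the start site. Those at -110 and -106 in Mcm6 overlap and were read on opposite strands. The stretch shown is 250 bases for Mcm6 and 30 bases for each other gene, so numbers of matches cannot be compared between these stretches.

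E2f8 held no E2F match in its entry and was shown beside Cdk1 and Cdc20, a pair of mitotic genes, because all 3 carry a CHR close to the start site. The stretches are the 250 bases before the start sites of E2f8 (chr7:48881597-48881846), Cdk1 (chr10:69352913-69353162) and Cdc20 (chr4:118437344-118437593), all on the minus strand and written 5′ to 3′ from RefSeq, GRCm38.p6, with CHR matches in capitals.
E2f8: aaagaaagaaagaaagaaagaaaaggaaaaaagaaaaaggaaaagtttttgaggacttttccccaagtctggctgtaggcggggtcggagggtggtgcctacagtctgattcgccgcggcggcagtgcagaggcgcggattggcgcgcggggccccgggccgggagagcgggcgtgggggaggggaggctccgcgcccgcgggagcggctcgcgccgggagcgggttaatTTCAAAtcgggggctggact
Cdk1: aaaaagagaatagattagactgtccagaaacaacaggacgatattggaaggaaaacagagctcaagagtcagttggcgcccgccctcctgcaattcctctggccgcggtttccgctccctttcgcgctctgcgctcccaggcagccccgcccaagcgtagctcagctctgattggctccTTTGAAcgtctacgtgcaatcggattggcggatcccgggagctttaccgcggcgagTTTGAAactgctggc
Cdc20: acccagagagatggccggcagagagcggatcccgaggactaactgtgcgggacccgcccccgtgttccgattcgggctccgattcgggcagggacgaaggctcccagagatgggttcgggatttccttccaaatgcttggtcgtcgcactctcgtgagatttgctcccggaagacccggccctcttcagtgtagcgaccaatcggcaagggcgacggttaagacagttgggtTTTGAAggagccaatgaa
The CHR began at -20 in E2f8, at -71 and -15 in Cdk1 and at -18 in Cdc20. Their log2 fold changes with LPS in WT cells were -1.08, -0.58 and -0.31, and that of Cdc20 did not pass the test.

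G1 regulators changed in both directions. Ccnd1, which encodes cyclin D1 (chr7:144929931-144939925, minus strand), was 389, 412 and 483 CPM in WT and 509.7, 602 and 528 CPM in ACAT1 KO cells without stimulation. It was 67.5, 80.5 and 102 CPM in WT and 87.3, 109 and 94.7 CPM in ACAT1 KO cells after LPS, so that no LPS library came near an unstimulated one. The fall was 5.14-fold in WT (log2 fold change -2.36, standard error 0.1496, adjusted p = 8.78e-08) and 5.62-fold in ACAT1 KO cells (-2.49, 0.1503, adjusted p = 4.87e-08). The genotypes were not called apart in either state (adjusted p = 0.141 and 0.308).

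Cdkn1a, which encodes the kinase inhibitor p21 (chr17:29090976-29100727, plus strand), went the other way. It was 338, 332 and 329.6 CPM in WT and 428, 410.1 and 429 CPM in ACAT1 KO cells without stimulation, and 963, 1004 and 1117 CPM and 1487, 1204 and 1185 CPM after LPS. The rise was 3.09-fold in WT (log2 fold change 1.63, standard error 0.0896, adjusted p = 2.88e-08) and 3.06-fold in ACAT1 KO cells (1.61, 0.0895, adjusted p = 2.58e-08). Per length, the ratio of Cdkn1a to Ccnd1 went from 0.903 to 1.15 over the 6 unstimulated libraries to 14.5 to 22.6 over the 6 LPS libraries, with overlap of the genotypes in both states.

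Ccnd3, which encodes cyclin D3 (chr17:47505051-47599691, plus strand), was 96.5, 111 and 97.2 CPM in WT and 105, 112 and 108 CPM in ACAT1 KO cells without stimulation, and 36.2, 50.2 and 41.8 CPM and 36.7, 44.5 and 37.8 CPM after LPS. The states did not overlap and the genotypes did. Its log2 fold change with LPS was -1.25 in WT (standard error 0.114, adjusted p = 1.72e-06) and -1.45 in ACAT1 KO cells (standard error 0.114, adjusted p = 4.30e-07). Cdkn1b, which encodes the kinase inhibitor p27 (chr6:134920401-134925513, plus strand), was 49.1, 62.5 and 74.4 CPM in WT and 41.1, 44.0 and 51.7 CPM in ACAT1 KO cells without stimulation, and 32.3, 37.5 and 33.96 CPM and 32.0, 45.7 and 41.4 CPM after LPS. It was called lower with LPS in WT (log2 fold change -0.84, standard error 0.158, adjusted p = 6.49e-04), where the states did not overlap, and not in ACAT1 KO cells (-0.20, 0.157, adjusted p = 0.290), where they did. The difference between these changes was 0.64 (standard error 0.222, adjusted p = 0.347) and did not pass.

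Ccnd2, which encodes cyclin D2 (chr6:127125162-127152193, minus strand), set the genotypes apart in both states. It was 172, 240.1 and 202 CPM in WT and 87.5, 86.1 and 71.8 CPM in ACAT1 KO cells without stimulation. After LPS it was 99.3, 168 and 142 CPM in WT and 59.5, 53.02 and 42.0 CPM in ACAT1 KO cells. Every ACAT1 KO library was below every WT library, LPS-stimulated WT libraries included. Expression was 2.48-fold lower in ACAT1 KO cells without stimulation (log2 fold change -1.31, standard error 0.138, adjusted p = 0.0175) and 2.61-fold lower after LPS (-1.38, 0.192, adjusted p = 0.00551). LPS lowered Ccnd2 in WT (log2 fold change -0.58, standard error 0.188, adjusted p = 0.0188) and in ACAT1 KO cells (-0.67, 0.189, adjusted p = 0.00914), the former call being lost without WT replicate 2 (adjusted p = 0.0790) or LPS-stimulated WT replicate 1 (0.0665). Per length, Ccnd2 was 0.209 to 0.292 of Ccnd1 in unstimulated WT and 0.0681 to 0.0859 in unstimulated ACAT1 KO cells, and 0.695 to 1.05 and 0.222 to 0.341 after LPS. Genes of the other strand cover 23.4% of the exons of Ccnd1, 7.86% of Ccnd2, 7.68% of Cdkn1a and 4.11% of Ccnd3, and Ccnd3 has a processed pseudogene.

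**Figure D3:**
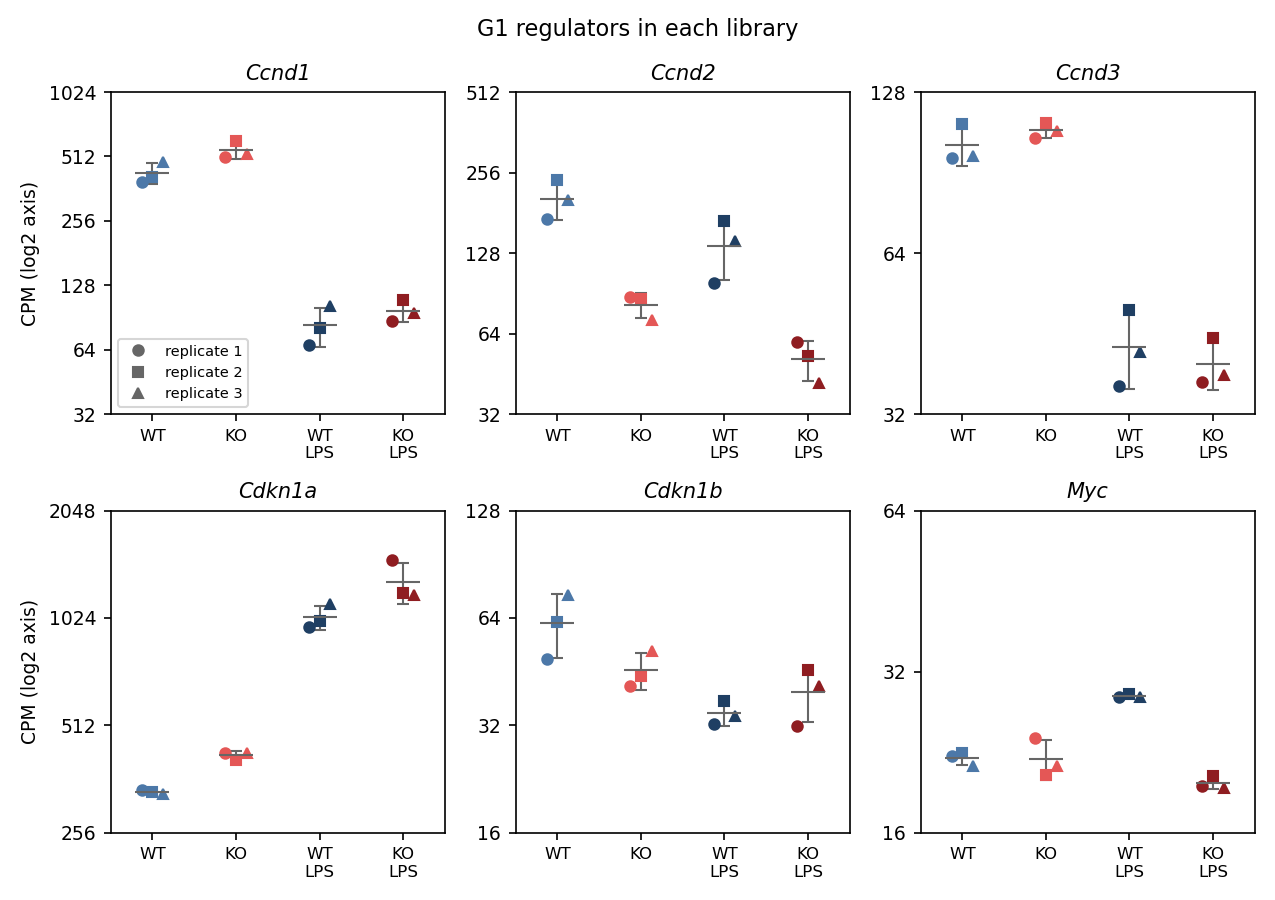
CPM of Ccnd1, Ccnd2, Ccnd3, Cdkn1a, Cdkn1b and Myc in each of the 12 libraries, on a log2 axis, by group, with the mean and SD of 3 libraries in grey and the replicate number as the symbol. Ccnd1 and Ccnd3 are low and Cdkn1a is high in all 6 LPS libraries, Ccnd2 is lower in ACAT1 KO than in WT libraries of both states, and Myc is 28.7 to 29.1 CPM in LPS-stimulated WT cells and 24.1 CPM or lower elsewhere.

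Myc, the transcription factor that drives growth and G1 progression (chr15:61985391-61990374, plus strand), was 22.3, 22.5 and 21.3 CPM in WT and 24.1, 20.5 and 21.4 CPM in ACAT1 KO cells without stimulation. After LPS it was 28.7, 29.1 and 28.7 CPM in WT and 19.6, 20.4 and 19.4 CPM in ACAT1 KO cells. The LPS-stimulated WT libraries were above all others. LPS raised Myc in WT by 0.39 on the log2 scale (standard error 0.0647, adjusted p = 2.64e-04), while the change in ACAT1 KO cells was -0.15 (standard error 0.0646, adjusted p = 0.0609). Of 22 MYC target genes of ribosome and nucleolus production, 17 were called higher with LPS in WT and 17 in ACAT1 KO cells, with medians of 0.54 and 0.55. Over all genes tested 29.3% and 29.5% were called higher. Wdr43, a nucleolar protein, had the smallest p of the list in both genotypes, with a log2 fold change of 1.31 in each.

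The second question was how the genotypes differed in each state. Without stimulation 5 of the 49 genes were called, Bub1, E2f1 and Cdkn1a higher and Ccnd2 and Pola1 lower in ACAT1 KO cells. The share called among all 16440 genes was 1.91%, 0.742% higher and 1.17% lower. The median log2 fold change of the 49 was 0.13 against 0.0035 over all genes, and 39 of the 49 were above 0. At an unadjusted p under 0.05, the threshold the study used, 15 of the 49 were higher and 3 lower, against 9.73% and 9.93% of all genes (19.7% together), and 17 did not overlap between the genotypes with the ACAT1 KO libraries higher and 3 with them lower, against 13.1% and 12.7% of all genes (25.8% together). The count of adjusted calls moved with single libraries. None was left without WT replicate 2 or without ACAT1 KO replicate 1, 2 or 3, where 16, 17, 15 and 13 genes had an unadjusted p under 0.05 by edgeR, and 1 was left without WT replicate 1 and 7 without WT replicate 3. Over all genes tested 7, 24, 34 and 10 were called without WT replicate 2 and ACAT1 KO replicates 1, 2 and 3 in turn. That count was 17 without WT replicate 1 and 522 without WT replicate 3. DESeq2 called 15 of the 49 in the 6 libraries, and 1721 of all 16440 genes.

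Bub1 was 1.53-fold higher in unstimulated ACAT1 KO cells (log2 fold change 0.62, standard error 0.0932, adjusted p = 0.0390), E2f1 1.39-fold higher (0.47, 0.0665, adjusted p = 0.0368) and Cdkn1a 1.28-fold higher (0.35, 0.0556, adjusted p = 0.0403). Bub1 and E2f1 lie on chromosome 2 from 90 Mb, where the 701 other genes tested had a median of 0.29 between the genotypes, so the segment as a whole was higher in ACAT1 KO cells. Less that median, Bub1 was 0.33 and E2f1 0.19 higher on the log2 scale. In all, 8 of the 49 genes lie there, Gins1, Pcna, E2f1, Bub1, Bub1b, Aurka, Ube2c and Tpx2, with log2 fold changes from 0.32 to 0.62 and 0.032 to 0.33 less the median of the segment. Over the 39 genes outside that segment and chromosomes 12 and X the median was 0.091. Within the 3 unstimulated libraries that stood apart, ACAT1 KO replicate 2 against WT replicates 1 and 2, the median of the 49 genes was 0.22, and within the other 3 it was 0.069. In these sets Bub1 had 0.75 and 0.44, E2f1 0.51 and 0.38, Cdkn1a 0.31 and 0.38, Ccnd2 -1.24 and -1.34 and Pola1 -0.83 and -0.55. The genotypes did not overlap for any of these 5 genes, so their direction in each set was fixed in advance.

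Pola1, the catalytic subunit of DNA polymerase alpha (chrX:93304767-93632155, minus strand), was 110.4, 116 and 83.7 CPM in WT and 56.8, 63.1 and 57.6 CPM in ACAT1 KO cells without stimulation. After LPS it was 77.0, 85.7 and 67.1 CPM in WT and 37.7, 44.0 and 41.6 CPM in ACAT1 KO cells, and the genotypes did not overlap in either state. It was 1.74-fold lower in ACAT1 KO cells without stimulation (log2 fold change -0.80, standard error 0.127, adjusted p = 0.0403) and 1.83-fold lower after LPS (-0.88, 0.0969, adjusted p = 0.00289). The other genes tested on chromosome X had medians of 0.020 and 0.032. LPS lowered Pola1 in WT (log2 fold change -0.43, standard error 0.122, adjusted p = 0.00904) and in ACAT1 KO cells (-0.52, 0.122, adjusted p = 0.00277). With a term in the edgeR fit for the 3 unstimulated libraries that stood apart, a grouping drawn from the counts and not from the labels, the former was -0.23 (adjusted p = 0.115).

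**Figure D4:**
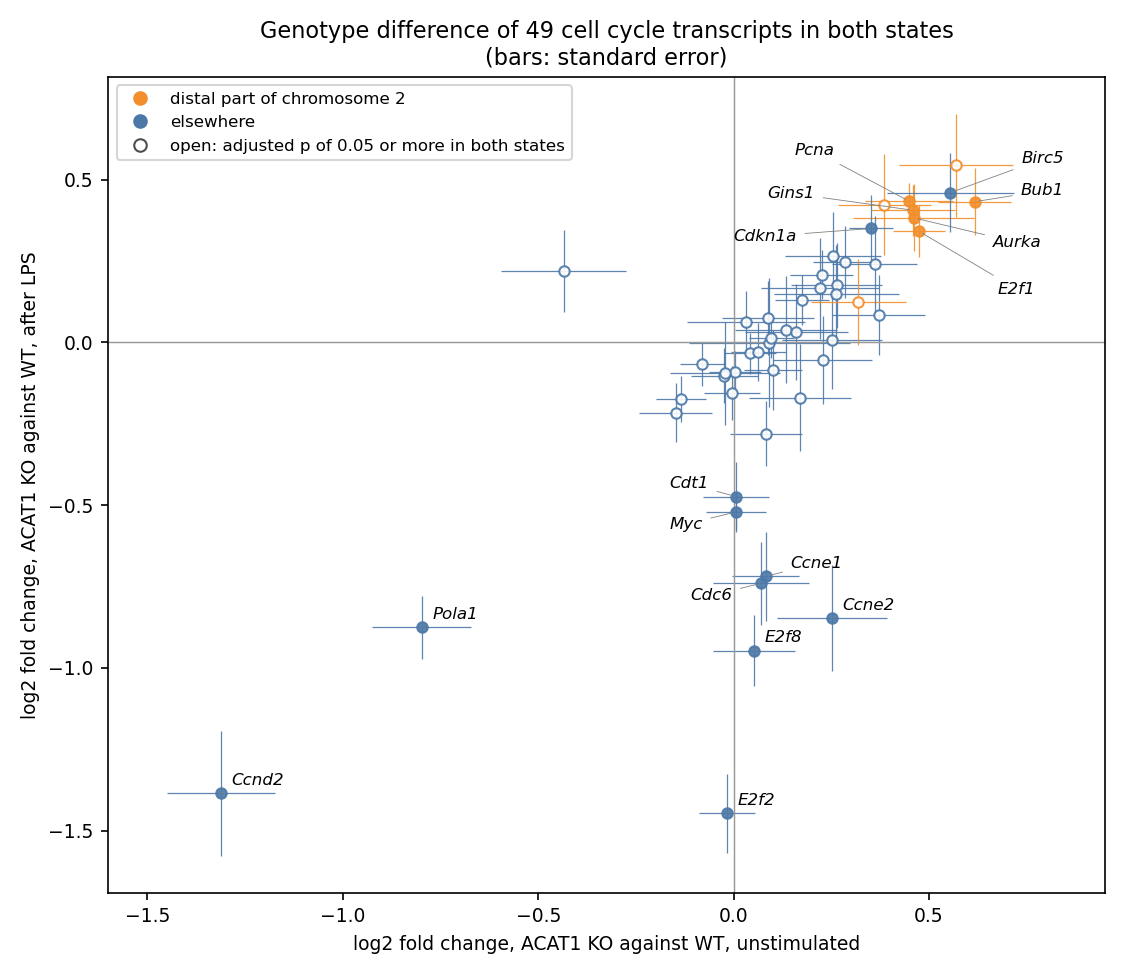
Log2 fold change of ACAT1 KO against WT for each of the 49 genes, without stimulation on the horizontal axis and after LPS on the vertical axis, with standard errors as bars. Genes on chromosome 2 from 90 Mb are orange, and filled symbols were called in at least 1 state. The orange genes are above 0 in both states, Ccnd2 and Pola1 are below 0 in both, and E2f2, E2f8, Ccne1, Ccne2, Cdc6, Cdt1 and Myc are close to 0 or above it without stimulation and below 0 after LPS.

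After LPS 15 of the 49 genes were called between the genotypes, 6 higher and 9 lower in ACAT1 KO cells. Over all 16483 genes tested 15.1% were called, 5.93% higher and 9.12% lower. Lower in ACAT1 KO cells were E2f2, E2f8, Ccne1, Ccne2, Cdc6, Cdt1, Pola1, Ccnd2 and Myc. E2f2 was 2.73-fold lower (log2 fold change -1.45, standard error 0.122, adjusted p = 0.00136), E2f8 1.93-fold lower (-0.95, 0.109, adjusted p = 0.00312) and Ccne1 1.65-fold lower (-0.72, 0.136, adjusted p = 0.0142). Ccne2 had a log2 fold change of -0.85, Cdc6 of -0.74 and Cdt1 of -0.47. Myc was 1.44-fold lower (-0.52, 0.0552, adjusted p = 0.00269). These genes lie on chromosomes 4, 6, 7, 8, 11, 15 and X, outside chromosome 12 and chromosome 2 from 90 Mb. Apart from X, no median was taken for these chromosomes. A difference shared by their genes was therefore not tested.

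Higher in LPS-stimulated ACAT1 KO cells were Pcna, Gins1, E2f1, Bub1, Aurka and Birc5, and 5 of these 6, all but Birc5, lie on chromosome 2 from 90 Mb, where the 704 other genes had a median of 0.27. Pcna was 1.35-fold higher (log2 fold change 0.43, standard error 0.0557, adjusted p = 0.00414), Gins1 1.32-fold (0.41, 0.0792, adjusted p = 0.0158), E2f1 1.27-fold (0.34, 0.0801, adjusted p = 0.0275) and Bub1 1.35-fold (0.43, 0.102, adjusted p = 0.0282). Less the median of the segment, these differences were 0.16, 0.13, 0.067 and 0.16 on the log2 scale. Birc5, which encodes survivin of the chromosomal passenger complex, lies on chromosome 11 and had a log2 fold change of 0.46. Without LPS-stimulated ACAT1 KO replicate 2 or replicate 3 the count of called genes among the 49 was 9 in each case, 1 higher and 8 lower. Over all genes tested these fits called 867 and 1034. Gins1, E2f1 and Bub1 lost their calls in both fits (adjusted p from 0.0563 to 0.0964).

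The third question was whether the genotype difference itself changed with LPS. In the test of that interaction 3 of the 49 genes were called, all of them negative, and 0.187% of the 16535 genes tested were called, 0.139% negative and 0.0484% positive. E2f2 had an interaction of -1.44 (standard error 0.145, adjusted p = 0.00441), which means that its fall with LPS was 2.72-fold deeper in ACAT1 KO cells. E2f8 had -1.01 (standard error 0.163, adjusted p = 0.0383) and Myc -0.54 (standard error 0.0914, adjusted p = 0.0463). Ccne1 with -0.81 (adjusted p = 0.0944), Ccne2 with -1.11 (adjusted p = 0.0948), Cdc6 with -0.82 (adjusted p = 0.118) and Cdt1 with -0.49 (adjusted p = 0.253) did not pass. By role the median interaction was -0.91 for the 6 E2F factors and S-phase cyclins, from -0.087 to -0.11 for the other 4 roles and -0.038 for all genes tested, of which 9697 were below 0, and 45 of the 49 were below 0. At an unadjusted p under 0.05, 8 of the 49 were negative and 1 positive, against 5.64% and 3.28% of all genes (8.92% together). The median of the 49, -0.10, moved to 0.0069 without the 3 unstimulated libraries that stood apart, to -0.014 without WT replicate 1, to -0.041 without LPS-stimulated WT replicate 2, to -0.036 without LPS-stimulated ACAT1 KO replicate 1 and to -0.045 with upper-quartile scaling, and to -0.22 without LPS-stimulated WT replicate 1.

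The call of E2f2 held in each of the 12 fits that left out a library, with interactions from -1.56 to -1.34. That of E2f8 was lost in 11 of them, all but the fit without LPS-stimulated WT replicate 3 (adjusted p = 0.0432), with estimates from -1.11 to -0.90 and adjusted p up to 0.105. That of Myc was lost in all 12, with estimates from -0.59 to -0.47 and adjusted p from 0.0606 to 0.131. Without the 3 unstimulated libraries that stood apart the estimates were -1.37, -0.85 and -0.60 and none was called, while 7 of the 49 genes had an unadjusted p under 0.05 by edgeR. DESeq2 on the 12 libraries called 6 of the 49, these 3 with Ccne1, Ccne2 and Cdc6, and 334 of all 16535 genes tested.

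To give each role a level per library, log2 CPM was centred on the 12-library mean of every gene and the median of the role's genes was taken. The level was 0.020, 0.33 and 0.39 for mitosis in unstimulated WT cells and 0.39, 0.55 and 0.60 in ACAT1 KO cells. After LPS it was -0.72, -0.21 and -0.42 in WT and -0.40, -0.14 and -0.21 in ACAT1 KO cells. Replicate 1 was the lowest library of its group for 17 and 16 of the 18 mitotic genes in unstimulated WT and ACAT1 KO cells and for all 18 in both LPS-stimulated groups, where over all genes tested it was the lowest for 32.3% to 35.2%. The pattern was not limited to mitosis. Replicate 1 was also the lowest for 6 of 6 E2F factors and S-phase cyclins in every group but LPS-stimulated WT cells, with 3 of 6 there. The same replicate was the lowest for 7 of 8 genes of DNA synthesis in both LPS-stimulated groups. For the licensing and helicase genes it was the lowest for 11 of 11 in LPS-stimulated ACAT1 KO cells. It was not so in all groups, since replicate 3 was the lowest for 7 of these 11 in LPS-stimulated WT cells. Replicate 2 was the lowest for 6 of them in unstimulated ACAT1 KO cells. For the E2F factors and S-phase cyclins the level was 0.51, 0.79 and 0.74 in unstimulated WT and 0.63, 0.94 and 0.85 in ACAT1 KO cells. After LPS it was -0.58, -0.31 and -0.48 in WT and -1.41, -1.05 and -1.06 in ACAT1 KO cells, without overlap. The G1 regulators did not overlap in either state. Their level was 0.36, 0.64 and 0.66 in unstimulated WT and -0.014, -0.081 and 0.065 in ACAT1 KO cells. After LPS it was -0.25, 0.057 and -0.026 in WT and -0.63, -0.36 and -0.52 in ACAT1 KO cells. Mitosis levels narrowly did not overlap without stimulation (0.387 in the highest WT and 0.392 in the lowest ACAT1 KO library).

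**Figure D5:**
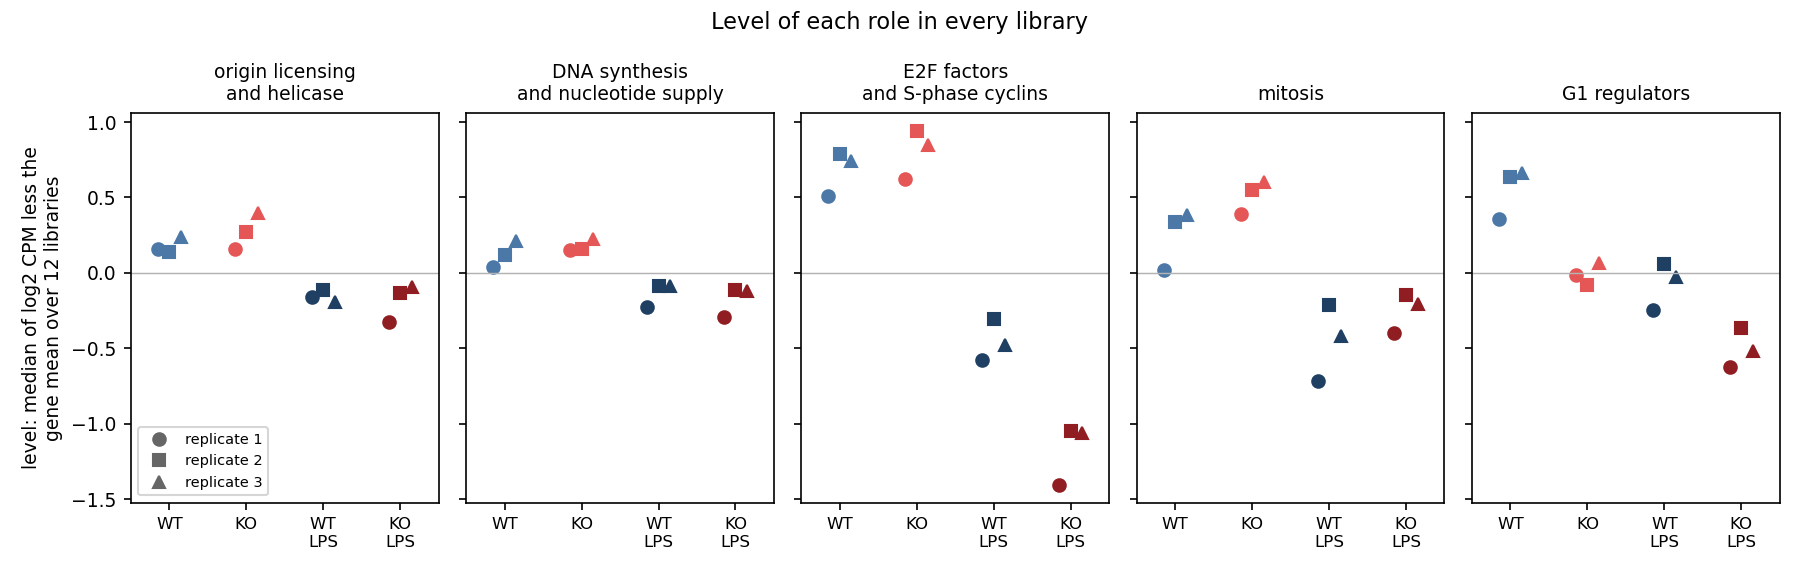
Level of each of the 5 roles in each of the 12 libraries (median of gene-centred log2 CPM), by group, with the replicate number as the symbol. All roles are lower after LPS in both genotypes, replicate 1 is the lowest mitosis point of every group, and the E2F factors and S-phase cyclins of LPS-stimulated ACAT1 KO cells lie from -1.41 to -1.05.

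Further genes of the same pathways, from lists outside the 49, were counted in the same fits. Over all genes tested 28.0% were called lower and 29.3% higher with LPS in WT, and 31.2% and 29.5% in ACAT1 KO cells. Of 51 further replication genes 42 were called lower and 1 higher with LPS in WT, and 45 lower and 1 higher in ACAT1 KO cells, with medians of -0.58 and -0.77. Gmnn, which encodes geminin, the inhibitor of Cdt1, had the smallest p of the list in both genotypes, with log2 fold changes of -1.75 and -2.04. Of 64 further mitosis genes 40 were called lower and 4 higher in WT and 53 lower and 1 higher in ACAT1 KO cells, with medians of -0.52 and -0.71. Of 33 further G1 and E2F regulators tested 13 were lower and 9 higher in WT and 17 lower and 7 higher in ACAT1 KO cells. Gadd45b, a stress-induced inhibitor of the cell cycle, led them, with log2 fold changes of 6.65 and 7.72, and Mnt, a MAX partner that opposes MYC, had -2.21 and -2.40.

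Between the genotypes after LPS, 9 of the 33 further G1 and E2F regulators were called lower in ACAT1 KO cells and none higher, and the list median was -0.21, where 9.12% of all genes were called lower. Of the 9, E2f6, Max and Lin52, named here after their values were seen, lie on chromosome 12, where the other 583 genes tested had a median of -0.28 and 240 were called lower. E2f7, Cdk2, Cdk4 and Btg1, also of the 9 and picked out in the same way, lie on chromosome 10. No median was taken for that chromosome, so a shared difference there was not tested. Without adjustment 15 of the 33 were lower and 1 was higher at a p under 0.05 by edgeR, against 2827 and 2327 of all 16483 genes tested. E2f7, the other atypical E2F, differed by -1.42 on the log2 scale (standard error 0.196, adjusted p = 0.00538), E2f3, an activator E2F, -0.59 (0.0916, adjusted p = 0.00744) and Cdk2, the kinase of the E cyclins, -0.46 (0.0738, adjusted p = 0.00831). Of the 51 further replication genes 9 were called lower and 3 higher. Timeless, of the fork protection complex and on chromosome 10, led them with -0.80. Next were Pole2, a DNA polymerase epsilon subunit on chromosome 12, with -0.60, and Dtl, an adaptor for the degradation of Cdt1, with -0.65. Of the 64 further mitosis genes 1 was lower, Espl1, which encodes separase, with -0.74, and 2 were higher. In the interaction test 0 of the further replication genes and 0 of the further mitosis genes were called by edgeR, and 12 of 51 and 6 of 64 had an unadjusted p under 0.05, all negative, against 5.64% of all genes negative and 8.92% in either direction. Of the further G1 and E2F regulators 1 was called, Gadd45b, and it was positive (1.08, adjusted p = 0.0383). E2f7 had an interaction of -1.09 (adjusted p = 0.136).

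Of 16 p53 target genes tested, Phlda3, which dampens AKT signalling, was called higher without stimulation in ACAT1 KO cells, where 0.742% of all genes were. At an unadjusted p under 0.05 by edgeR, 10 were higher and none lower, against 9.73% and 9.93% of all genes. Their median was 0.28. After LPS 4 were called higher and 1 lower, against 5.93% and 9.12% of all genes, with a median of 0.038. With LPS 3 were called higher and 7 lower in WT, against 29.3% and 28.0% of all genes. In ACAT1 KO cells 3 were higher and 8 lower, against 29.5% and 31.2%. Fas, the death receptor, rose with log2 fold changes of 3.76 and 3.18, and Sesn1, a stress-induced inhibitor of mTORC1 signalling, fell with -1.91 and -2.49. Cdkn1a, itself a p53 target, was called higher with LPS in both genotypes. Whether p53 had a part in any of these changes was not tested.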

How the data were processed

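RNA was sequenced from 12 libraries, 3 of each of 4 groups. Per the study's methods and processing notes, the authors removed adapters (Trimmomatic 0.33), mapped reads on GRCm38 (HISAT2) and estimated gene expression (StringTie). The deposited values are whole-number counts per gene in 2 tables, one per state, with only expressed genes listed (every gene had at least 4 counts in at least 5 of 6 libraries). The program that wrote the counts and its use of strand are not given in the sources used here. Repeated rows (59 and 57) were removed. The 12 columns of log2 values and the columns of the authors' own fold changes and p-values were not used. Coordinates are from GENCODE M21.

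Counts were scaled by TMM and tested with edgeR 4.0.16 (quasi-likelihood, filterByExpr) in R 4.3.3, and an adjusted p under 0.05 counted as a call. Genotypes were compared within a table (6 libraries each). LPS effects and the interaction were fitted over the 16699 genes present in both tables and 12 libraries, so LPS effects set values of separately made tables side by side. DESeq2 1.42.0, other scalings, a replicate block and the removal of libraries or segments were alternatives, of which the removal of 3 unstimulated libraries and the block over 12 libraries were added after the data were seen. Scripts were tested on simulated data with 200 changed genes. Tables were joined with pandas 2.3.3 in Python 3.11.15.

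Values by library are given for 6 G1 regulators and, per comparison and direction, for the 3 called genes with the smallest p. Further lists name genes among their 3 smallest p of those called. Genes named because they failed the test were named after their values were seen. The 49 genes, the roles and the further lists were chosen with earlier results of these data known. Library totals ran from 56948593 to 167280149 counts, so spread between libraries, not counting error, limits precision, and p-values measure the spread between these libraries. Without stimulation, deviations of WT replicates 1 and 2 from their group mean correlated with those of ACAT1 KO replicate 2 at 0.483 and 0.65. How much of the spread came from the lines was not tested.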

Additional observations from a re-analysis of the deposited data

Results flagged for a closer look

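The genotype difference was called as changed with LPS, by the test of the interaction over 12 libraries, for 3 of the 49 genes. Over all 16535 genes tested 0.187% were called. The interaction was -1.44 for E2f2 (adjusted p = 0.00441, edgeR), whose CPM were at 51.5 to 59.7 in all 6 unstimulated libraries. It was -1.01 for E2f8 (adjusted p = 0.0383) and -0.54 for Myc (adjusted p = 0.0463). Each of these genes was lower in all 3 LPS-stimulated ACAT1 KO libraries than in all 3 LPS-stimulated WT libraries. The same held for 3240 of the 16483 genes tested after LPS. Of 12 fits that left out a library, the call was kept in 12 for E2f2, 1 for E2f8 and 0 for Myc.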

How the results depend on the processing

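Without stimulation, 5 of the 49 genes were called between the genotypes. The count was 15 with DESeq2, 18 at an unadjusted p under 0.05, 1 without chromosome 12 and chromosome 2 from 90 Mb (40 genes tested), 1 without the 3 unstimulated libraries that stood apart, and 0 to 7 when 1 library was left out. After LPS the count was 15, and 9 to 15 with 1 library left out, 9 without LPS-stimulated ACAT1 KO replicate 2 or 3. For the interaction it was 3, and 6 with DESeq2, 1 with upper-quartile scaling, 9 at an unadjusted p under 0.05, 1 without those segments, 0 without the 3 libraries, and 1 to 2 with 1 library left out. Counts for LPS in WT (34 to 44) and in ACAT1 KO cells (34 to 46) stayed within 1.5 times of 40 and 41 under every alternative run. Calls over all genes tested moved too. Without stimulation they were 314, and 1721 with DESeq2 and 7 to 522 when 1 library was left out. After LPS they were 2481, and 867 to 2245 when 1 library was left out. For the interaction they were 31, and 334 with DESeq2 and 2 to 41 when 1 library was left out. Over 42 results for single genes, 208 of 270 values with 1 library left out and 348 of 367 under other settings kept their side of the threshold, and none reversed. The cause of these changes was not tested. With the replicate number as a block, 4 genes were called without stimulation, 19 after LPS and 5 in the interaction, where Ccne1 and Ccne2 joined E2f2, E2f8 and Myc. Deviations of libraries with the same number in the 2 states correlated at 0.0913 to 0.307 over 16535 genes, against -0.214 to 0.0375 for other numbers, with 1 pair under 0.1, and at 0.139 to 0.454 over the 11961 genes with a mean of at least 1 CPM, with none under 0.1. Every library correlated best with its own number in both sets of genes. The labels do not state a pairing, so whether the numbers pair the samples is not known. Depth does not limit these genes, whose lowest count was 461.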
